A study of Mus musculus with 6 samples.

Results

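The genes described here were 10 genes of interleukin-1 (IL-1) and IL-17 signaling in TKPTS cells, chosen by name from the deposited table of 29595 genes. They were the ligands Il1a, Il1b, Il18 and Il33, the receptor antagonist Il1rn, the IL-1 receptor subunits Il1r1 and Il1rap, the IL-17 receptor subunits Il17ra and Il17rc, and the IL-17 receptor adaptor Traf3ip2. These 10 genes were chosen with earlier results of these data known, and 9 had enough counts to be tested, among 17824 genes tested in all. In cells that overexpressed HNF3α, Il1a and its antagonist Il1rn were lower, the receptor subunits and the adaptor did not pass the test in either direction, and Il18 was at or near 0.

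IL-1α and IL-1β bind the receptor subunit IL-1R1, which then recruits the accessory protein encoded by Il1rap. The receptor antagonist encoded by Il1rn binds IL-1R1 without recruiting the accessory protein. IL-33 and IL-18 act through receptors of their own in the same family, and IL-33 signaling also uses the accessory protein. These receptors pass their signal through MyD88 and the IRAK kinases to NF-κB. IL-17A and IL-17F bind a receptor made of IL-17RA and IL-17RC, and the adaptor Act1, encoded by Traf3ip2, couples that receptor to NF-κB and to proteins that stabilize the mRNAs of chemokines. Epithelial cells of injured tissue are known sources of IL-1α and IL-33, and kidney tubule cells are known to respond to IL-1 and IL-17.

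TKPTS cells are an established mouse line derived from the proximal tubule of the kidney. A total of 3 libraries came from cells transfected with pcDNA3.1-Hnf3a-Flag, a plasmid that encodes Flag-tagged HNF3α (the Hnf3a group), and 3 from cells transfected with the Flag plasmid without that gene (the pcDNA group). RNA was taken 24 h after transfection, and the labels name no cytokine or other stimulus in either group. HNF3α, also called FOXA1, is a forkhead transcription factor, and the comparison asks how its overexpression changed RNA levels in tubule cells. The labels do not say whether the libraries of a group came from separate cultures, so p-values measure the spread between libraries only. Each library is a bulk sample of a transfected culture, in which fewer cells expressing a gene and less RNA per cell cannot be told apart.

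The total estimated count ranged from 60473818 to 71154667 per library. Foxa1, which checks the labels, was at 334.2, 295.5 and 284.2 FPKM (a level scaled for gene length and library size) in the Hnf3a libraries, against 9.48 to 9.96 FPKM in the pcDNA libraries. Values of 3 libraries are listed throughout in the order of replicates 1, 2 and 3. RNA from the plasmid and from the cells' own gene cannot be told apart in these values. The epithelial markers Epcam, Cdh1, Krt8, Krt18 and Pax8 were abundant in every library. Markers of the mature proximal tubule were mixed. Lrp2, Cubn and Hnf4a stayed at or below 58 counts and Slc5a2 at or below 3. Anpep had 7 to 69 counts, Ggt1 47 to 94, Aqp1 162 to 235 and Slc27a2 2307 to 2696. Hnf3a replicates 2 and 3 stood apart. Of 15 macrophage markers, 13 and 14 exceeded 12 counts in those libraries, against 3 in Hnf3a replicate 1 and 4 to 5 in the pcDNA libraries, and Tyrobp and C1qa were at 0 in the other 4 libraries. The summed level of the macrophage list was 37.6 and 41.7 CPM (counts scaled to library size) against 26.3 to 29.8 CPM, and that of 10 fibroblast markers was 66.9 and 84.0 CPM against 0.893 to 2.19 CPM in the other 4 libraries. Of 10 neutrophil and 8 T cell markers, 2 to 5 and 2 to 3 exceeded 12 counts in each library. In each library, 12 counts (about 3 sequenced fragments, because 1 fragment was worth about 4 counts) were taken as the detection floor, which covers counting error only.

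The 250 bases upstream of annotated start sites are shown for the 2 members that fell, for Il33, which did not pass the test, and for Il1rl1, the IL-33 receptor gene that rose. The sequences are from RefSeq (GRCm38.p6), which gave a window for 8 of the 10 members. Il33 and Il1rl1 have 2 windows each, and the one with a forkhead match is shown. Il1rn has 3, of which the middle one overlaps the downstream one and is not shown. Capitals mark matches, on either strand, to the letters of 4 motifs. These were forkhead (the letters TGTTTAC, or else TATTTAC, or else TGTTTGC), NF-κB (GGGNNNNNCC), AP-1 (TGANTCA) and C/EBP (TTNNGNAA). Matches can overlap, as the forkhead and C/EBP letters do in the Il33 window.
Il1a, chr2:129309973-129310222, minus strand: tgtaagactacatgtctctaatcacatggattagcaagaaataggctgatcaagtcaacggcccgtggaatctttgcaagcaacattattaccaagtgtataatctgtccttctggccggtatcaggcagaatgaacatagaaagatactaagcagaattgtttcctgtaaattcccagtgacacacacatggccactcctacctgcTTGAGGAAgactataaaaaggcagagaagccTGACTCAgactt
Il1rn, upstream start, chr2:24336610-24336859, plus strand: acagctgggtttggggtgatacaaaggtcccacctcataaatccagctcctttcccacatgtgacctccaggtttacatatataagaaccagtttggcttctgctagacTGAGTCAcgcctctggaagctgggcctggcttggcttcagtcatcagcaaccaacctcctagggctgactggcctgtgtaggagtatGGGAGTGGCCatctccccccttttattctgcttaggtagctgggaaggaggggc
Il1rn, downstream start, chr2:24345121-24345370, plus strand: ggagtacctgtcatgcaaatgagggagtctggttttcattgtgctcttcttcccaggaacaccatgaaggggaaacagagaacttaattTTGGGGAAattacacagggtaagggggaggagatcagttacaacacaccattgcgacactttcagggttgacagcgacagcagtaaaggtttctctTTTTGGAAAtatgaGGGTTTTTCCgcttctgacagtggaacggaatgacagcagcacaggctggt
Il33, upstream start, chr19:29924863-29925112, plus strand: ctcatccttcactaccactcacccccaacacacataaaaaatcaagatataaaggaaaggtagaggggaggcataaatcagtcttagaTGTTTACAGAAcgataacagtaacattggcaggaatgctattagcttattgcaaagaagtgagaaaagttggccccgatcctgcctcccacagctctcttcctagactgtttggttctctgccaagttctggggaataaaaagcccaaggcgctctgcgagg
Il1rl1, downstream start, chr1:40439379-40439628, plus strand: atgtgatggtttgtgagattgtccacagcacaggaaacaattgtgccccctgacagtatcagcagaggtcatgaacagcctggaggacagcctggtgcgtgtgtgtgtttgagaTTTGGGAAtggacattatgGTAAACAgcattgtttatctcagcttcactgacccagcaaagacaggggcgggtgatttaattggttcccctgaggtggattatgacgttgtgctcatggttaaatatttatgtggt
The Il1a window held 1 AP-1 match, at -12 from the start site, and 1 C/EBP match at -43. The window at the upstream Il1rn start held 1 AP-1 match at -141 and 1 NF-κB match at -54, and the window at the downstream start held 1 NF-κB match at -51 and 3 C/EBP matches, of which 2 overlapped each other. Forkhead letters occurred at -162 in the Il33 window shown and at -117 in the Il1rl1 window shown, and 0 times in the other window of each of these 2 genes. The Il1a window and the 3 windows of Il1rn held none. The windows of Il1b, Il18, Il1r1, Il1rap and Il17rc, which are not shown, held none either. Of the 8 members with a window, Il33 was thus the only member with forkhead letters. Among 32536 distinct windows of the same length, 9.73% held the forkhead letters, 46% the NF-κB letters, 6.73% the AP-1 letters and 36.8% the C/EBP letters. A match is a run of letters and not a measured binding site, and a window without one says nothing about binding elsewhere.

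Across all genes tested, 3.17% passed the threshold of edgeR's quasi-likelihood test (Benjamini-Hochberg adjusted p under 0.05), with 2.13% lower and 1.04% higher in the Hnf3a group. Among the 9 members tested, 2 were lower and 0 were higher at that threshold, as they were with Hnf3a replicates 2 and 3 both left out. At an unadjusted p under 0.05, 0 members were higher, and DESeq2's Wald test also called 0 members higher. For the 9 members the median log2 fold change (Hnf3a over pcDNA, given below as the estimate ± its standard error) was -0.04, against 0.00 over all genes tested. The groups did not overlap in CPM for 4 members, Il1a, Il1rn, Il1rap and Il17ra, all lower in the Hnf3a group, and for 0 members in the other direction. Over all genes tested, 9.81% did not overlap with lower values in the Hnf3a group and 9.12% with higher values.

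**Figure D1:**
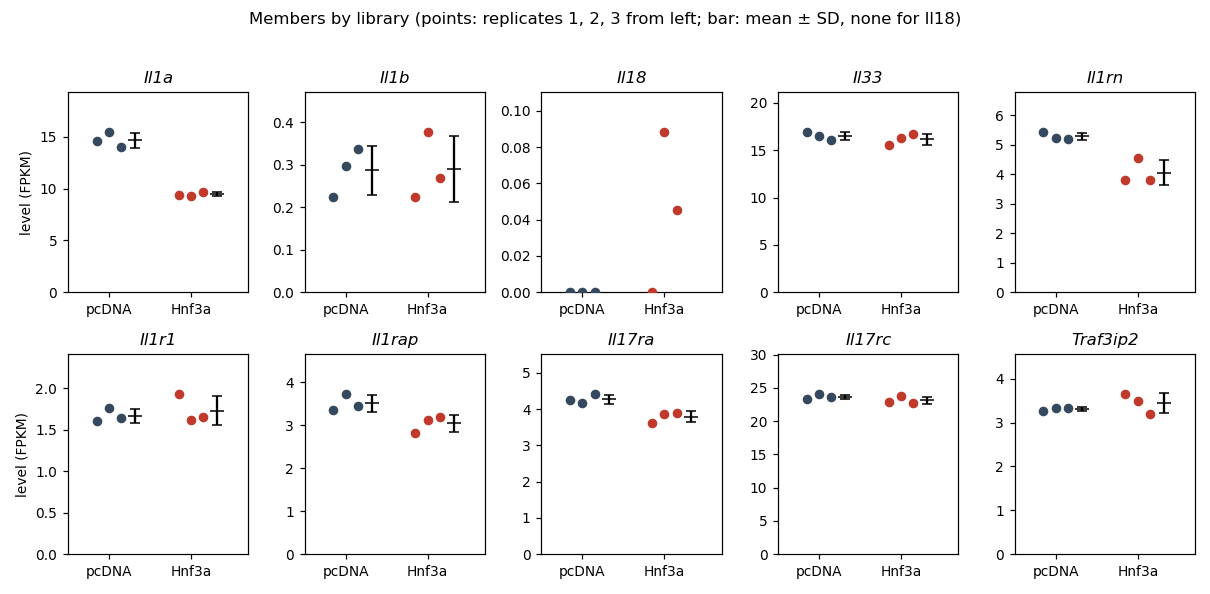
Level of each member in FPKM in every library (vertical axes start at 0 and differ between panels), with pcDNA libraries in dark blue and Hnf3a libraries in red, replicates 1, 2 and 3 from left to right, and a black bar for the mean ± SD of 3 libraries, left out for Il18. The 3 Hnf3a libraries lie below the 3 pcDNA libraries for Il1a, Il1rn, Il1rap and Il17ra, and the groups overlap for the other members.

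Among the ligands, Il1a was the one that fell. Il1a (ENSMUSG00000027399) encodes IL-1α, which is active as a precursor and is known as an alarm signal released from damaged epithelial cells. The gene is on chromosome 2 (minus strand), from 129299610 to 129309972 (GRCm38), with 7 exons. Its estimated counts were 1344, 1455 and 1404 with HNF3α, against 1941, 2235 and 2016 with the Flag plasmid alone. The corresponding levels were 9.37, 9.30 and 9.67 FPKM against 14.5, 15.4 and 14.0 FPKM. Every Hnf3a library lay below every pcDNA library, and the spread within each group was small beside the gap. Means were 9.45 ± 0.197 FPKM (SD, n = 3) with HNF3α against 14.7 ± 0.719 FPKM (SD, n = 3) without it. The level fell by 35.9%, a log2 fold change of -0.64 ± 0.058 (edgeR adjusted p = 2.05e-05). It passed the threshold in all 17 alternative analyses, with adjusted p between 6.66e-18 and 0.00256. An antisense gene, Gm14023, overlaps Il1a but held only 19 to 39 counts per library.

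Il1b, the neighboring gene, was scarce and showed no difference that could be detected. Il1b (ENSMUSG00000027398) encodes IL-1β, which needs cleavage by caspase-1 before it can act and is made above all by macrophages and other myeloid cells. It lies on the same strand of chromosome 2, from 129364570 to 129371139, and has 7 exons. It had 32, 58 and 39 counts with HNF3α, and 29, 42 and 47 counts with the Flag plasmid alone. The groups overlapped fully, with the highest value in Hnf3a replicate 2, one of the libraries with more macrophage marker counts. Its log2 fold change of 0.04 ± 0.34 did not pass (edgeR adjusted p = 0.985), and an error of that size leaves changes of either sign possible. The part of the macrophage markers in these values was not tested. An antisense gene that overlaps Il1b, Il1bos, held more counts than Il1b in every library (62 to 120). The sources do not say whether the counting used strand, so reads of this pair may not be separated.

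Il18 was the one member at or below 12 counts in every library. Il18 (ENSMUSG00000039217) encodes IL-18, another ligand that caspase-1 activates, and is on chromosome 9 (plus strand), from 50554827 to 50581840. It was at 0, 8 and 4 counts with HNF3α and at 0 counts in all 3 pcDNA libraries. These values are all under the detection floor, and the filter of the main test left Il18 out. It did not pass in the 1 alternative that kept it (edgeR adjusted p = 0.536). The only counts came from Hnf3a replicates 2 and 3.

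Il33 had the highest level per length of the 4 ligands and did not pass the test. Il33 (ENSMUSG00000024810) encodes IL-33, a nuclear protein of epithelial and stromal cells that acts as an alarm signal when released. It is on chromosome 19 (plus strand), from 29925114 to 29960718. Its levels were 15.5, 16.2 and 16.7 FPKM with HNF3α, against 16.9, 16.5 and 16.1 FPKM with the Flag plasmid alone. The groups overlapped and no library stood apart. In edgeR's test Il33 had a log2 fold change of -0.04 ± 0.045 (adjusted p = 0.814).

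The other ligands of both families with values in the table follow, although the rule for named genes did not include them unless they passed the test. Of the other family genes listed, 1 of 14 in the IL-1 family and 3 of 9 in the IL-17 family were not found in the table by symbol. Values for Il17a, the gene of IL-17A, were not among those analysed. Il1f6, the table's older symbol for Il36a, encodes the epithelial cytokine IL-36α and fell. It was at 15.7, 19.6 and 18.2 FPKM with HNF3α and at 31.9, 30.4 and 29.4 FPKM with the Flag plasmid alone, with no overlap. Il1f6 had a log2 fold change of -0.78 ± 0.077 (edgeR adjusted p = 4.35e-05), and it passed in all 17 alternatives. Its level per length in the pcDNA group (30.6 ± 1.26 FPKM, SD, n = 3) was above that of every member. Il1f9 (Il36g) had 40 to 46 counts in the Hnf3a group and 55 to 82 in the pcDNA group, and did not pass the test (edgeR adjusted p = 0.179). Il17c, an IL-17 ligand of epithelial cells, had 7 to 14 counts in the Hnf3a group and 24 to 42 in the pcDNA group, and did not pass either (edgeR adjusted p = 0.181). Il17d and Il17f had edgeR adjusted p of 0.939 and 0.983. Il1f5 (Il36rn), the antagonist of the IL-36 receptor, had 17, 39 and 14 counts with HNF3α and 25, 11 and 20 with the Flag plasmid alone, and did not pass (edgeR adjusted p = 0.931). Beside Il18, the ligands at 12 or fewer counts in every library comprised Il1f10, with at most 3 counts. Il1f8 (Il36b) exceeded that floor only in pcDNA replicate 3, at 13 counts, and was at 0 in all 3 Hnf3a libraries. Il17c was at or below 12 counts in 1 library and Il17f in 2.

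The antagonist gene Il1rn also fell. Il1rn (ENSMUSG00000026981) is on chromosome 2 (plus strand), from 24336853 to 24351494, and has 4 protein-coding transcripts in GENCODE vM21. Some of them encode a secreted and others an intracellular form, and the gene-level values do not separate these. Its counts were 1536, 2005 and 1549 with HNF3α, against 2035, 2122 and 2104 with the Flag plasmid alone. Its levels were 3.81, 4.57 and 3.80 FPKM against 5.43, 5.22 and 5.21 FPKM. The groups did not overlap, and Hnf3a replicate 2 lay nearest to the pcDNA libraries. The level fell by 23.6%, a log2 fold change of -0.39 ± 0.070 (edgeR adjusted p = 0.0068). This call was less stable than that of Il1a. It was lost without pcDNA replicate 1 (edgeR adjusted p = 0.0616) and in limma fits of log2 FPKM (adjusted p 0.0731 to 0.0800), and held in 13 of 17 alternatives. The Il1rn call held with Hnf3a replicates 2 and 3 both left out, where the remaining Hnf3a library was assumed to vary like the pcDNA libraries, at a log2 fold change of -0.47 (edgeR adjusted p = 0.00887).

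The signaling subunits of the IL-1 receptor did not pass the test. Il1r1 (ENSMUSG00000026072, chromosome 1, from 40225080 to 40317257, plus strand) encodes the subunit that binds IL-1α, IL-1β and the antagonist. It was at 1.93, 1.62 and 1.65 FPKM with HNF3α and at 1.60, 1.77 and 1.64 FPKM with the Flag plasmid alone. Hnf3a replicate 1 was the highest and the other 5 libraries overlapped. Its log2 fold change was 0.04 ± 0.093 (edgeR adjusted p = 0.915).

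Il1rap (ENSMUSG00000022514, chromosome 16, from 26581704 to 26730117, plus strand) encodes the accessory protein shared by the receptors of IL-1, IL-33 and IL-36. It was at 2.81, 3.13 and 3.19 FPKM with HNF3α and at 3.36, 3.72 and 3.44 FPKM with the Flag plasmid alone. The groups did not overlap in FPKM, though the estimated counts did before scaling to library size. A log2 fold change of -0.21 ± 0.058 was fitted, and the edgeR adjusted p of 0.0708 missed the threshold. DESeq2's Wald test put Il1rap past it (adjusted p = 0.0261), as did edgeR on counts divided by 4 (adjusted p = 0.0479), and the other 15 alternatives did not.

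Among the other receptors of the family, Il1rl1 rose. Il1rl1 encodes ST2, the receptor of IL-33, with a membrane form and a soluble decoy form that gene-level values do not separate. Its counts were 1790, 1753 and 1501 with HNF3α against 1080, 920 and 1035 with the Flag plasmid alone, with no overlap. Il1rl1 had a log2 fold change of 0.65 ± 0.094 (edgeR adjusted p = 0.00148), and passed in all 17 alternatives, with adjusted p up to 0.0429. The IL-18 receptor subunits Il18r1 and Il18rap had log2 fold changes of -0.05 and -0.04 (edgeR adjusted p = 0.922 and 0.955). Sigirr, an inhibitory receptor of the family, and Il18bp, the secreted binding protein of IL-18, did not pass either, at -0.02 and -0.21 on the log2 scale (edgeR adjusted p = 0.956 and 0.511).

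The decoy receptor gene Il1r2 had 4, 11 and 20 counts with HNF3α and 0 counts in each pcDNA library. A single library exceeded 12 counts, and the filter of the main test left Il1r2 out. The groups did not overlap, and Il1r2 did not pass in the 5 alternatives that kept it (edgeR adjusted p 0.0546 to 0.198). In Hnf3a replicate 1, which lacked the additional macrophage and fibroblast marker counts, Il1r2 was at 4. The part of those markers in the Il1r2 counts was not tested. Il1rl2, the IL-36 receptor gene, was at 0 to 4 counts in 5 libraries and at 13 in Hnf3a replicate 3. Il1rapl1 did not exceed 2 counts in any library.

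Both IL-17 receptor subunits were expressed and neither passed the test. Il17rc (ENSMUSG00000030281, chromosome 6, from 113471427 to 113483140, plus strand) had the highest level per length of the 10 genes, with 22.8, 23.8 and 22.8 FPKM with HNF3α and 23.3, 24.04 and 23.6 FPKM with the Flag plasmid alone. The groups overlapped, and the log2 fold change was -0.04 ± 0.037 (edgeR adjusted p = 0.739).

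Il17ra (ENSMUSG00000002897, chromosome 6, from 120463247 to 120487559, plus strand) encodes the subunit shared by several IL-17 receptors. It was at 3.62, 3.87 and 3.89 FPKM with HNF3α and at 4.26, 4.16 and 4.41 FPKM with the Flag plasmid alone. The groups did not overlap in FPKM, though here too the estimated counts did before scaling to library size. The log2 fold change of -0.18 ± 0.050 missed the threshold in edgeR (adjusted p = 0.0738). DESeq2's Wald test put Il17ra past it (adjusted p = 0.0473), and the other 16 alternatives did not.

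The remaining receptors of that family were Il17rb, Il17rd and Il17re. Il17rd and Il17re had log2 fold changes of -0.06 and -0.08 (edgeR adjusted p = 0.893 and 0.923). Il17rb had 13, 23 and 8 counts with HNF3α and 0, 0 and 18 with the Flag plasmid alone, and did not pass (edgeR adjusted p = 0.731). Il17rb overlaps Actr8 on the opposite strand, which held at least 2658 counts in every library.

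Traf3ip2 (ENSMUSG00000019842, chromosome 10, from 39612934 to 39655307, plus strand) encodes Act1. It was at 3.65, 3.49 and 3.19 FPKM with HNF3α and at 3.26, 3.34 and 3.32 FPKM with the Flag plasmid alone. The Hnf3a libraries spread around the pcDNA libraries on both sides. The fit gave 0.05 on the log2 scale ± 0.079 (edgeR adjusted p = 0.880). The antisense gene E130307A14Rik, which overlaps Traf3ip2, held 278 to 368 counts per library against 815 to 1023 for Traf3ip2.

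**Figure D2:**
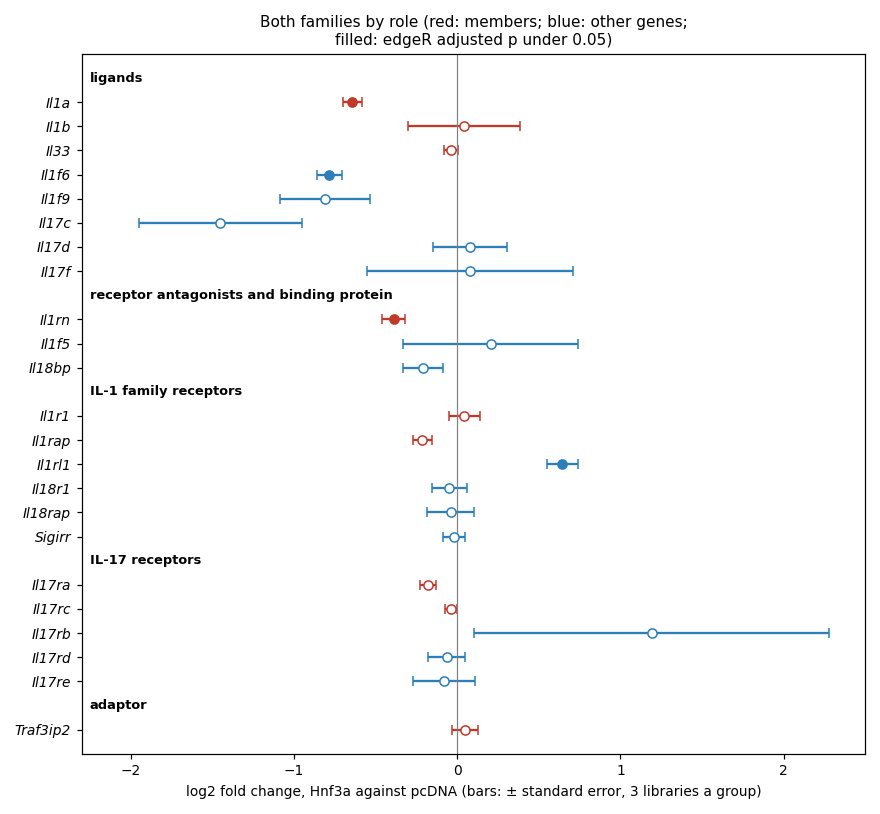
Log2 fold change of the Hnf3a against the pcDNA group (horizontal axis) for the tested ligands, antagonists, receptors and adaptor, with members in red, other genes in blue, bars for the standard error and filled points for an edgeR adjusted p under 0.05. Il1a, Il1f6 and Il1rn lie to the left and Il1rl1 to the right with filled points, and Il1r1, Il1rap, Il17ra and Il17rc lie between -0.21 and 0.04 with open points.

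The order of the members' levels per length was nearly the same in both groups. In the pcDNA group the mean FPKM was highest for Il17rc, followed by Il33 at 16.5 and Il1a at 14.7, and then by Il1rn at 5.29, Il17ra at 4.28, Il1rap at 3.51, Traf3ip2 at 3.31, Il1r1 at 1.67, Il1b at 0.287 and Il18 at 0. No 2 neighbors in that order overlapped over the 3 libraries, although the lowest Il1rap value (3.36) and the highest Traf3ip2 value (3.34) nearly met. In the Hnf3a group Il1a was further below Il33, at 9.45 against 16.1 FPKM. There Il1rn overlapped Il17ra and Il17ra overlapped Traf3ip2, so the order of these 3 genes was not resolved by the libraries, and Traf3ip2 (3.45) came before Il1rap (3.04). Against the mean FPKM of all tested genes, the members ran from the percentile 19.4 for Il1b to the percentile 87.0 for Il17rc, with Il1a at 75.9 and Il1r1 at 39.7.

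Ratios within a library compare subunits without a scaling factor. The Il17ra to Il17rc ratio of FPKM was 0.159, 0.163 and 0.171 with HNF3α and 0.183, 0.173 and 0.187 with the Flag plasmid alone. The Il1r1 to Il1rap ratio was 0.574 ± 0.098 (SD, n = 3) with HNF3α against 0.476 ± 0.0016 (SD, n = 3) without it, and the higher Hnf3a mean rested mostly on replicate 1, at 0.687. Without that library the difference of the mean log2 ratios fell from 0.25 to 0.12. The Il1rn to Il1r1 ratio, of antagonist to receptor, was 2.37 ± 0.43 (SD, n = 3) against 3.17 ± 0.22 (SD, n = 3). The Traf3ip2 to Il17ra ratio was 0.910 ± 0.093 (SD, n = 3) against 0.774 ± 0.026 (SD, n = 3). For each of these 4 ratios the groups did not overlap, and the two-sided exact permutation p was 0.1, the smallest that 3 libraries against 3 allow, with an adjusted value of 0.1 over the 4. None could therefore pass the threshold in this design. The Il1a to Il1rn ratio, added after the values were seen and given without a test, was 2.46, 2.04 and 2.54 with HNF3α and 2.68, 2.96 and 2.69 with the Flag plasmid alone. The fitted fold changes of the 2 genes were -0.64 and -0.39 on the log2 scale, and their difference was not tested.

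Several of these genes are neighbors, and 3 groups on 2 chromosomes were drawn. Outside those groups, Il17re ends at 113470758 on chromosome 6, just before Il17rc starts at 113471427 on the same strand. Neither of these 2 genes passed the test (log2 fold changes of -0.08 and -0.04). Il1rn lies at one end of a cluster of 6 ligand and antagonist genes on chromosome 2 that spans 198 kb, with Il1f6 121435 bases from it, start to start. In that cluster Il1f6 and Il1rn fell, and Il1f8 and Il1f10 were too low to test. Il1f9 (-0.81 ± 0.28 on the log2 scale, no overlap) and Il1f5 (0.20 ± 0.54, with overlap) did not pass the test. Il1a and Il1b lie elsewhere on chromosome 2, with 54597 bases between them, and had log2 fold changes of -0.64 and 0.04. The test of Il1b had a standard error several times that of Il1a, and the difference between the 2 genes was not tested. Il1r1 belongs to a cluster of 6 receptor genes on chromosome 1 that spans 478 kb. There Il1rl1 rose, Il1r1, Il18r1 and Il18rap lay between -0.05 and 0.04 on the log2 scale without passing the test, and Il1r2 and Il1rl2 were too low to test.

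**Figure D3:**
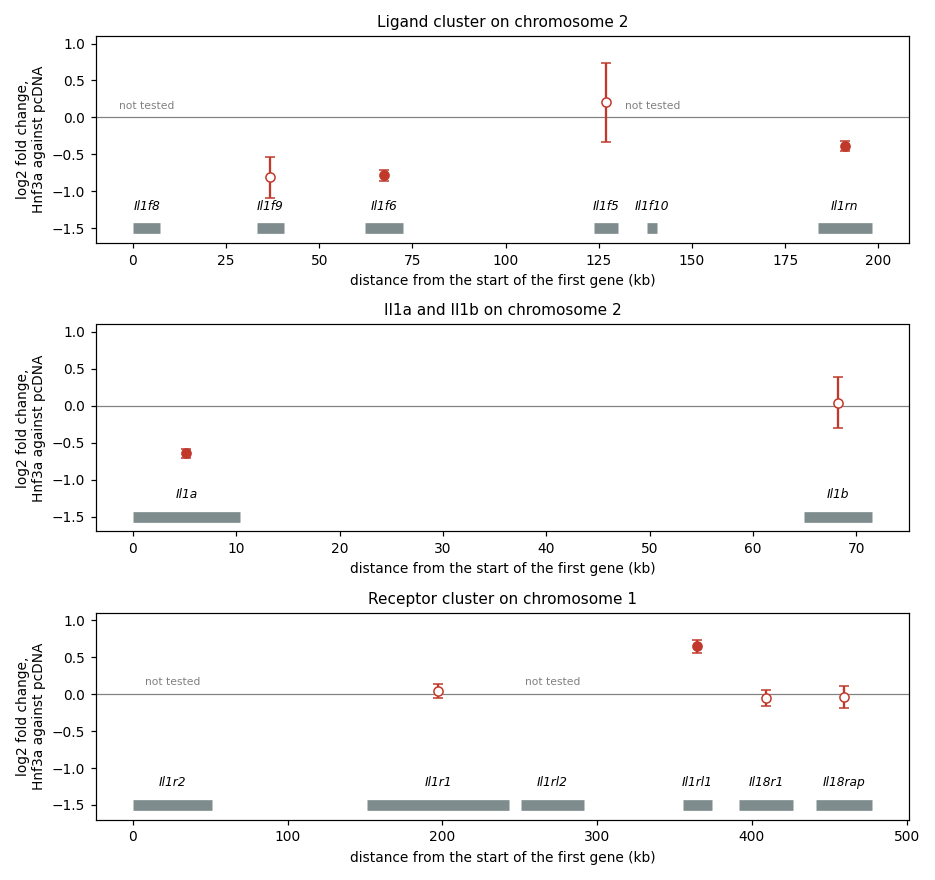
Log2 fold change of the Hnf3a against the pcDNA group (vertical axis, bars for the standard error, filled points for an edgeR adjusted p under 0.05) against distance in kb from the start of the first gene, for the ligand cluster, for Il1a and Il1b, and for the receptor cluster, with genes drawn to scale as grey bars. Filled points below 0 are Il1f6, Il1rn and Il1a, and the filled point above 0 is Il1rl1.

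Genes that act around the members were counted on 6 lists with 90 entries, of which 77 were tested. Of these, 23 were lower and 1 was higher, beside the 2.13% and 1.04% of all genes tested. The lists of the other IL-1 and IL-17 family genes, described above, held 8 and 6 tested genes, with 1 lower and 1 higher on the first and 0 in either direction on the second. Most of the lower genes, 16, were on the list of 24 genes known as shared targets of IL-1 and IL-17 signaling, of which 23 were tested. The targets with the smallest p were the neutrophil chemokine gene Cxcl5, the granulocyte growth factor gene Csf3, the complement factor gene Cfb and the inducible nitric oxide synthase gene Nos2. Their log2 fold changes were -1.06, -1.04, -1.18 and -1.69, with edgeR adjusted p of 5.99e-10, 1.03e-09, 1.82e-09 and 7.36e-09. Cxcl5 had 35573, 37877 and 34241 counts with HNF3α against 69362, 70489 and 71810 with the Flag plasmid alone. Among the 7 targets that did not pass were Ptgs2, Cebpb and Cebpd. These had log2 fold changes of -0.02, -0.06 and -0.10 (edgeR adjusted p = 0.895, 0.679 and 0.561). The others were not all near 0. Ccl7 and Mmp13 had -0.88 and -0.65, lower with no overlap in CPM (edgeR adjusted p = 0.075 and 0.133). Ccl7 passed in 5 of 17 alternatives. S100a8 and S100a9 had -0.45 and 1.09, with overlap (edgeR adjusted p = 0.752 and 0.863). The median log2 fold change of the target list was -0.73, against -0.04 for the members. The members and all 6 lists, the targets among them, were drawn up with earlier results of these data known. Their direction and their share of calls are therefore no independent evidence.

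Between receptor and target, most genes did not pass the test. Of 31 genes tested on the adaptor lists described next, 5 were lower and 0 were higher, beside 2.13% and 1.04% of all genes tested. For 12 of the 31 the groups did not overlap in CPM with lower values in the Hnf3a group, and for 1 with higher values. Over all genes tested these shares were 9.81% and 9.12%. Of 17 adaptors and kinases of the IL-1 pathway, among them Myd88 and Traf6, 1 was lower and 0 were higher. That gene was Irak3, which encodes IRAK-M, a kinase-like inhibitor of IL-1 receptor signaling. It had 179, 139 and 175 counts with HNF3α and 408, 312 and 408 with the Flag plasmid alone, with no overlap. Irak3 had a log2 fold change of -1.28 ± 0.18 (edgeR adjusted p = 0.000888), and the call was lost in 1 of 17 alternatives, with Hnf3a replicates 2 and 3 both left out (-1.10, adjusted p = 0.0508). Irak3 overlaps Tmbim4 on the opposite strand, which held 1627 to 1908 counts.

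Of 14 genes that act beside Act1 in IL-17 signaling or bind the mRNAs it controls, 4 were lower and 0 were higher. Zc3h12a, the gene of the ribonuclease Regnase-1 that degrades cytokine mRNAs, was at 12.2, 12.2 and 11.1 FPKM with HNF3α and at 22.0, 20.3 and 21.8 FPKM with the Flag plasmid alone, a log2 fold change of -0.86 (edgeR adjusted p = 5.18e-07). Nfkbiz, which encodes the nuclear cofactor IκBζ, had a log2 fold change of -0.49 (edgeR adjusted p = 7.64e-07). Tnfaip3, which encodes the NF-κB inhibitor A20, and Ikbke, which encodes the kinase IKKε, had log2 fold changes of -0.36 and -0.35 (edgeR adjusted p = 0.000327 and 9.34e-05). Regnase-1, A20 and IRAK-M are known as inhibitors of these pathways. Zc3h12a, Nfkbiz, Tnfaip3 and Ikbke passed in all 17 alternatives.

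Of 12 genes that process or release the ligands, such as caspase-1, the inflammasome and the calpains, 9 were tested, 1 was lower and 0 were higher. Gsdmd, which encodes the pore-forming protein gasdermin D, had 141, 159 and 172 counts with HNF3α and 205, 235 and 263 with the Flag plasmid alone. Its log2 fold change was -0.66 ± 0.16 (edgeR adjusted p = 0.0407). The Gsdmd call was lost without any 1 of the 6 libraries (adjusted p 0.0502 to 0.165) and held in 6 of 17 alternatives.

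**Figure D4:**
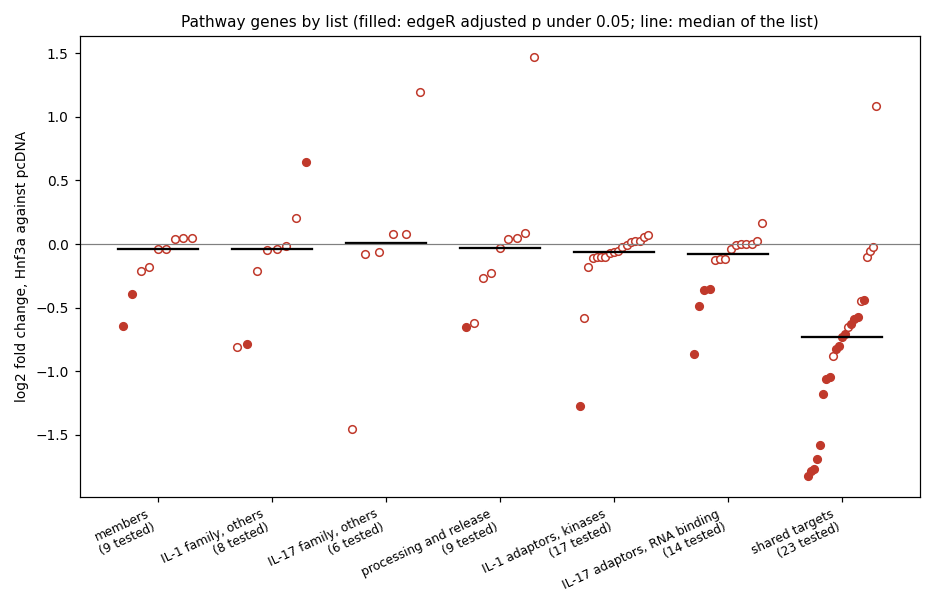
Log2 fold change of the Hnf3a against the pcDNA group (vertical axis) for every tested gene of the member list and of the 6 pathway lists (horizontal axis), with filled points for an edgeR adjusted p under 0.05 and a black line for the median of each list. Filled points lie mostly on the list of shared targets, 16 of 23, and 2 of 9 members are filled.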

How the data were processed

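RNA was sequenced from 6 libraries of TKPTS cells, 3 of the Hnf3a group and 3 of the pcDNA group, with groups and replicate numbers taken from the labels. Libraries were prepared from polyadenylated RNA, per the labels, with strand marking and molecular identifiers, and paired reads of 150 bases were obtained. The submitters' processing notes name cutadapt 1.9, HISAT2 2.0.4, UMI-tools, StringTie 1.3.4d, DESeq2, edgeR and the build mm10, which is GRCm38. Whether counting used strand is not given in the sources used here.

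The authors deposited a whole-number estimated count and an FPKM value for each gene and library. More genes sat at 4 counts than at 3 or 5 in every library, so 1 fragment was taken as about 4 counts. Fold changes were tested on the estimated counts (filterByExpr, TMM, glmQLFit with robust = TRUE and glmQLFTest of edgeR 4.0.16 in R 4.3.3, two-sided, no covariate), with Benjamini-Hochberg adjustment over all 17824 genes tested. Each standard error was obtained as the size of the log2 fold change over the root of its F statistic. FPKM was used for levels and ratios. Coordinates of the 10 members were identical in the table and in GENCODE vM21, which also gave exons and overlapping genes. These steps were first tested on simulated counts.

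The members, the 6 pathway lists and the marker lists were chosen with earlier results of these data known. The genes named were the members, listed genes past the threshold (of the shared targets the 4 with the smallest p), the remaining receptors and decoys of both families, and Foxa1. Ptgs2, Cebpb, Cebpd, Ccl7, Mmp13, S100a8 and S100a9 were named outside that rule, as targets that did not pass. The alternatives were DESeq2 size factors, total counts, 2 other filters, a replicate block, the Wald test of DESeq2 1.42.0 and counts divided by 4. Others were limma 3.58.1 on log2 FPKM with pseudocounts of 0.1, 1 and 0.01, and each library left out. Changes of low genes are understated most at a pseudocount of 1. For Irak3 the limma log2 fold change was -0.61 at 1 and -1.26 at 0.01. Leaving out Hnf3a replicates 2 and 3 together was added after seeing the data. A planned ratio of Il1r2 to Il1r1 was not computed because Il1r2 was at 0 in 3 libraries.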

Additional observations from a re-analysis of the deposited data

How the results depend on the processing

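The fall of Il1a and Il1f6 and the rise of Il1rl1 passed the threshold in all 17 alternatives, with adjusted p of at most 0.00256, 0.00512 and 0.0429. The number of members called lower, 2, became 4 with DESeq2's Wald test and 3 with edgeR on counts divided by 4. It became 1 with limma on log2 FPKM at each of the pseudocounts 0.1, 1 and 0.01. With single libraries left out it ranged from 1 to 2, with 1 without pcDNA replicate 1. No alternative called a member higher. The number of pathway genes called lower stayed between 19 and 25 and the number called higher at 1. Over all genes, the 565 calls fell to 265, 248 and 271 with limma (pseudocounts 0.1, 1 and 0.01), to 322 with Hnf3a replicates 2 and 3 both left out, and ranged from 263 to 643 when single libraries were left out. DESeq2's Wald test called 819. The cause of these changes was not tested.

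Signs turned for the following genes, which did not pass in any alternative. Leaving out single libraries, the log2 fold change of Il1b ranged from -0.18 to 0.19, that of Il1r1 from -0.046 to 0.096, Il1f5 from -0.32 to 0.52, Il17d from -0.074 to 0.30, Il17f from -0.38 to 0.53, Il18rap from -0.095 to 0.039, Sigirr from -0.065 to 0.034, Il17rd from -0.13 to 0.029 and Il17re from -0.26 to 0.098. With Hnf3a replicates 2 and 3 both left out it was -0.32 for Il1b, -0.17 for Il1f5, 0.068 for Il18rap, 0.018 for Il17rd and 0.23 for Il17re. The value of Il17f was -0.044 with the replicate block and -0.066 with limma at a pseudocount of 0.01.

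Libraries with the same replicate number did not deviate together (correlations -0.041, -0.010 and 0.010), so the numbers were not taken as pairs. With the replicate block, 463 genes, 2 members lower, 0 members higher, 22 pathway genes lower and 1 higher were called, and the block ended the call of Gsdmd (adjusted p = 0.0600) and of no other named gene. Depth limits Il1b, Il18, Il1f5, Il1f8, Il1f9, Il1f10, Il17c, Il17f, Il1r2, Il1rl2 and Il17rb, whose counts correspond to few fragments.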
